A study of Mus musculus with 6 samples.

Results

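Circular RNAs (circRNAs) were examined for 37 genes of the PI3K, AKT and mTOR pathway in mouse brain. The genes were taken by name from the host gene column of the circRNA table, and the junction reads of each gene were summed over its circles. No measured value entered this rule, but the list of genes was chosen with earlier results of these data known. Of the 37 genes, 26 were listed with at least 1 circle and 11 with none. The 26 genes had 118 of the 18136 circRNAs listed and stood among 5414 named host genes. They held 831 of the 190023 junction reads.

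In this pathway, insulin and insulin-like growth factors bind receptor tyrosine kinases, and adaptors recruit phosphoinositide 3-kinase (PI3K), which makes membrane lipids that bring AKT to PDK1. AKT acts on GSK3, on FOXO transcription factors and on the TSC complex, the brake on RHEB and so on the protein kinase mTOR, whose complexes control translation, growth and autophagy. In neurons the pathway is known for its part in survival, soma size and synaptic plasticity. A circRNA is a closed ring made when the end of an exon is joined to the start of the same or an upstream exon. Reads across that back-splice junction identify it and show its ends only, so the inner exons and the lengths given here are predicted.

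The samples were 3 brain libraries labelled WT, for wild type, and 3 labelled A53T, a transgenic mouse model of Parkinson disease. RNA was enriched for circles before sequencing in all 6 libraries. The sample labels name brain as the tissue, while the series text names the substantia nigra of the midbrain. The series text also names the PI3K, AKT and mTOR axis, as proteins assayed in separate cell experiments that are not analysed here. Strain, age, sex, the copy number of the transgene and the promoter that drives it are not in the labels used here. No label states that the samples came from separate mice, so every p-value here reflects the spread among these libraries alone, and that spread may be technical.

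Each library held 25217 to 36390 junction reads, and 1 read was worth 27.5 to 39.7 CPM, the unit of level used here, which scales junction reads for library size. The transgene itself was not checked here. All 8 neuronal marker genes had circles, with a summed 533 to 848 reads per WT library and 631 to 649 per A53T library. Astrocyte markers (3 of 5 genes) had 0 to 8 and 6 to 11 reads, oligodendrocyte markers (2 of 5) 0 to 2 and 0 to 3, and endothelial markers (1 of 3) 0 to 4 and 0. None of 4 microglial markers had a circle. Of 6 dopaminergic neuron markers, Kcnj6 alone had circles, with 14 to 27 and 22 to 49 reads, and the defining genes Th, Slc6a3, Slc18a2, Ddc and Nr4a2 had none. The part of cell makeup in the results below was not tested, and in bulk brain RNA fewer cells of a type and less RNA per cell cannot be told apart. Linear mRNA was not measured.

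Circles of the receptors and of a class II PI3K were among those with the most reads. Back-splice junctions are shown for those of the 8 most read circles whose junction lies wholly in coding sequence, because they hold most reads of both receptors and are the most read wholly coding circles of Pik3c2a. Pik3c2a exons 15 to 21 is added because it starts at the same exon as Pik3c2a exons 15 to 20 and ends 1 exon later. Each line gives 20 bases of the end of the last exon in lower case, then 20 bases of the start of the first exon in capitals, 5′ to 3′ on the gene's strand, from GENCODE M21 transcripts.
Igf1r exon 2: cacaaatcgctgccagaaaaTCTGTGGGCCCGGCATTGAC
Insr exon 2: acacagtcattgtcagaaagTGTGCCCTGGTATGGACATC
Pik3c2a exons 5 to 8: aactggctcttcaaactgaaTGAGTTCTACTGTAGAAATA
Pik3c2a exons 15 to 20: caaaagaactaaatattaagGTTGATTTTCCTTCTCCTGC
Pik3c2a exons 15 to 21: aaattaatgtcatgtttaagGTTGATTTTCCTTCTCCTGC

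In mm39, the build of the deposited table, these circles lie at chr7:67653558-67654103 (plus strand), chr8:3308383-3308934 (minus strand), chr7:115987079-115990628, chr7:115959231-115967424 and chr7:115957871-115967424 (the last 3 on the minus strand). The Igf1r and Insr circles are each made of exon 2 alone, wholly coding, 546 and 552 nt long. Both lengths are multiples of 3, and neither circle holds a stop codon in the frame of its host. Aligned end to end, the exons matched at 376 of 556 columns (67.6%), with a longest identical run of 14 nt. Their 40-base junctions matched at 15 positions when laid side by side. The capitals of both circles starting at Pik3c2a exon 15 are the same, since the start of that exon is joined once to the end of exon 20 and once to the end of exon 21.

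Igf1r encodes the receptor for insulin-like growth factor 1 and Insr the insulin receptor. The Igf1r sum in replicates 1, 2 and 3 was 3, 20 and 5 reads for WT and 16, 16 and 21 reads for A53T, and counts below follow the same order. Every A53T library had at least 500.4 CPM, WT replicate 2 had 549 CPM and the other WT libraries had 90.2 and 198 CPM, so the groups overlapped through WT replicate 2. The WT mean was 279 ± 240 CPM and the A53T mean 564 ± 71.2 CPM (n = 3 per group, ± SD). The log2 fold change of A53T over WT was 0.97 (standard error, SE, of 0.52, 95% interval -0.07 to 2.00). The difference did not pass (adjusted p = 0.991 over all host genes, edgeR quasi-likelihood with Benjamini-Hochberg), although its p was the smallest of the 12 genes tested here. The value rested on single WT libraries, being 1.98 without WT replicate 2 and 0.52 without WT replicate 1, with adjusted p = 0.409 and 0.981 in the same test.

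Exon 2 gave 77 of the 81 Igf1r reads. This circle had 3, 20 and 5 reads in the WT replicates and 16, 12 and 21 in the A53T replicates, and its groups also overlapped. Its means in WT and A53T were 281 ± 249 and 520 ± 138 CPM (n = 3 per group, ± SD), a log2 fold change of 0.85 (SE 0.53, 95% interval -0.23 to 1.92; adjusted p = 0.993, edgeR quasi-likelihood with Benjamini-Hochberg). That log2 fold change was 1.91 without WT replicate 2 and 0.42 without WT replicate 1. The other Igf1r circle, exons 3 to 5, had 4 reads, all in A53T replicate 2.

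Insr was read at similar counts in every library. Its sum was 8, 10 and 11 reads in WT and 12, 10 and 10 in A53T, fully overlapping. The means were 317 ± 105 and 344 ± 60.6 CPM (n = 3 per group, ± SD), with a log2 fold change of 0.13 (SE 0.57, 95% interval -1.002 to 1.27; adjusted p = 0.993, edgeR quasi-likelihood with Benjamini-Hochberg). Exon 2 of Insr accounted for 53 of the 61 reads. It had 8, 10 and 9 reads in WT and 10, 8 and 8 in A53T. At 288 ± 57.0 and 277 ± 50.2 CPM, its log2 fold change was -0.04 (SE 0.57, 95% interval -1.20 to 1.11; adjusted p = 1.00 by the same edgeR test). The other 4 Insr circles had 2 reads each, every one in a single library.

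Irs1 and Irs2 encode adaptors that link these receptors to PI3K. Irs1 had 1 circle, of the sense overlapping class, which shares sequence with the gene without following its annotated exons. Its reads were 1, 1 and 2 in WT and 0, 7 and 0 in A53T, so A53T replicate 2 held most of them. No circle of Irs2 was listed. Summed over the receptors and adaptors, the level was 361, 851 and 715 CPM in WT and 966, 1032 and 946 CPM in A53T. All 3 A53T libraries lay above all 3 WT libraries, at 981 ± 45.0 against 642 ± 253 CPM (n = 3 per group, ± SD), and the sum was not tested. The separation rests on Irs1, which gave 219 CPM in A53T replicate 2 and 27.5 CPM in WT replicate 2. Without Irs1, A53T replicate 2 would lie below WT replicate 2, and the Igf1r and Insr sums each overlapped. No background share of non-overlap was computed for sums of this kind, here and for the other roles.

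**Figure D1:**
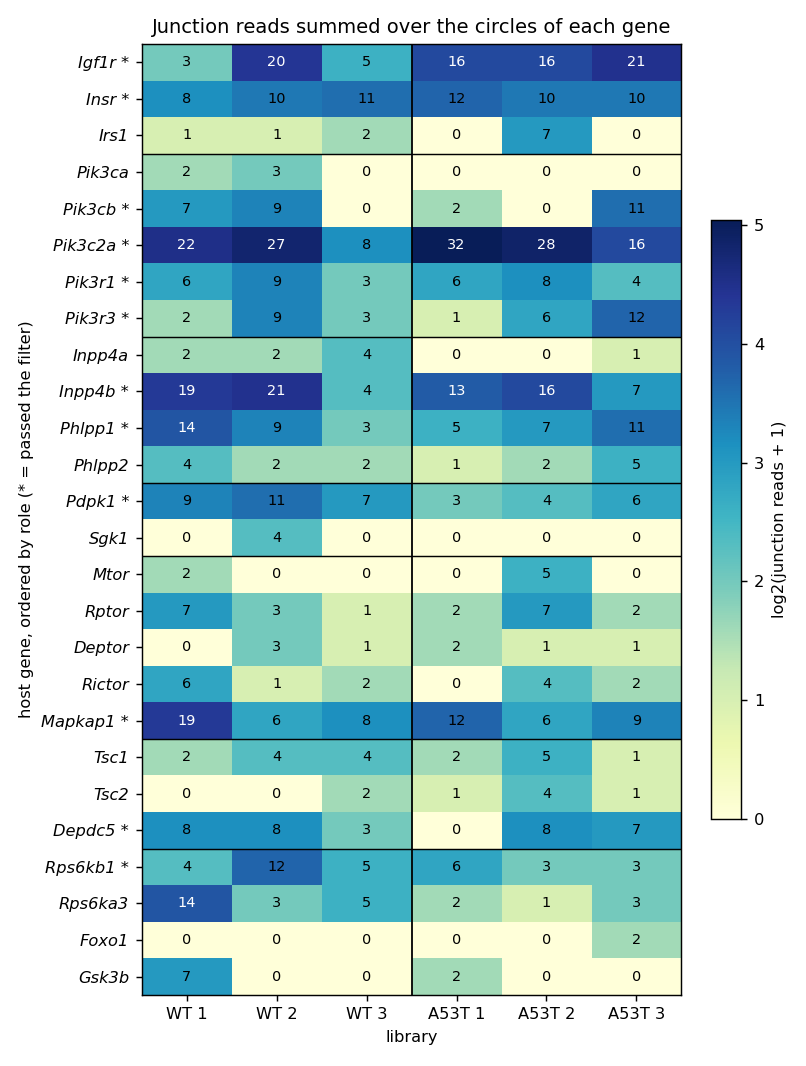
Junction reads of the 26 host genes with a circle (rows, by role) in each of the 6 libraries (columns), with the count printed in each cell; a star marks the 12 genes that passed the filter on low counts. Pik3c2a, Igf1r and Inpp4b are among the genes with the most reads (133, 81 and 80 in all), and many cells hold 0 to 3 reads.

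The PI3K subunit genes held the largest share of the reads of the 37 genes, 236 of 831 (28.4%). Pik3c2a, which encodes a class II PI3K active in endocytosis, led the 37 genes with 15 circles and 133 reads, rank 296 among the host genes. It had 22, 27 and 8 reads in WT and 32, 28 and 16 in A53T. The lowest value, 318 CPM, was in WT replicate 3, and A53T replicate 3, at 488 CPM, lay below both other WT libraries. The means were 573 ± 225 and 823 ± 311 CPM (n = 3 per group, ± SD), a log2 fold change of 0.48 (SE 0.38, 95% interval -0.29 to 1.24; adjusted p = 0.991, edgeR quasi-likelihood with Benjamini-Hochberg). Its range on leaving out each library was 0.19 to 0.71.

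The reads of Pik3c2a were spread over many exon runs. Exons 5 to 8, 377 nt and not a multiple of 3, gave 29 reads, exons 15 to 20 gave 27, exon 2 with the start codon gave 22, and exons 15 to 21 gave 14. The circle of exons 5 to 8 had 6, 3 and 3 reads in WT and 5, 10 and 2 in A53T. Its highest and its lowest count were both in A53T, at 125 ± 46.6 CPM in WT and 180 ± 126 CPM in A53T (n = 3 per group, ± SD). Its log2 fold change was 0.51 (SE 0.81, 95% interval -1.14 to 2.16; adjusted p = 0.993, edgeR quasi-likelihood with Benjamini-Hochberg).

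The circle of exons 15 to 20 had 4, 3 and 2 reads in WT and 4, 9 and 5 in A53T, and the one of exons 15 to 21 had 6, 1 and 1 and 1, 3 and 2. The start of exon 15 was shared by 3 circles with 47 reads, 20 in WT and 27 in A53T. Exon 2 was uneven, with 1, 12 and 1 reads in WT and 5, 0 and 3 in A53T, so WT replicate 2 held 12 of its 22 reads. All these circles but that of exons 5 to 8 fell under the filter and were not tested.

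Pik3r1 and Pik3r3 encode regulatory subunits that hold the catalytic subunit at phosphotyrosines. Pik3r1 had 6, 9 and 3 reads in WT and 6, 8 and 4 in A53T, a close match of the groups at 182 ± 64.0 and 193 ± 65.1 CPM (n = 3 per group, ± SD; log2 fold change 0.05, SE 0.78). Its exon 2 circle, 714 nt with the start codon, gave 31 of 36 reads and was seen in all 6 libraries. Pik3r3 had 2, 9 and 3 reads in WT and 1, 6 and 12 in A53T. Its lowest and its highest library were both A53T, and the log2 fold change was 0.45 (SE 0.86, 95% interval -1.27 to 2.17; adjusted p = 0.993, edgeR quasi-likelihood with Benjamini-Hochberg). The start of its exon 2 was joined to the end of exon 5 (15 reads) or of exon 7.

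Pik3ca and Pik3cb encode class I catalytic subunits. Pik3cb had 7, 9 and 0 reads in WT and 2, 0 and 11 in A53T, with 1 library of each group at 0 and a log2 fold change of -0.22 (SE 1.01). Its most read circle, exons 22 to 23, had 15 of the 29 reads. Pik3ca had 2, 3 and 0 reads in WT and none in A53T, from 2 circles of 1 library each. Pik3cd, a catalytic subunit gene best known from leukocytes, and Pik3r2, a further regulatory subunit gene, had no circle listed. The subunit genes together stood at 1098 ± 509 CPM in WT and 1347 ± 58.1 CPM in A53T (n = 3 per group, ± SD), with overlapping groups.

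**Figure D2:**
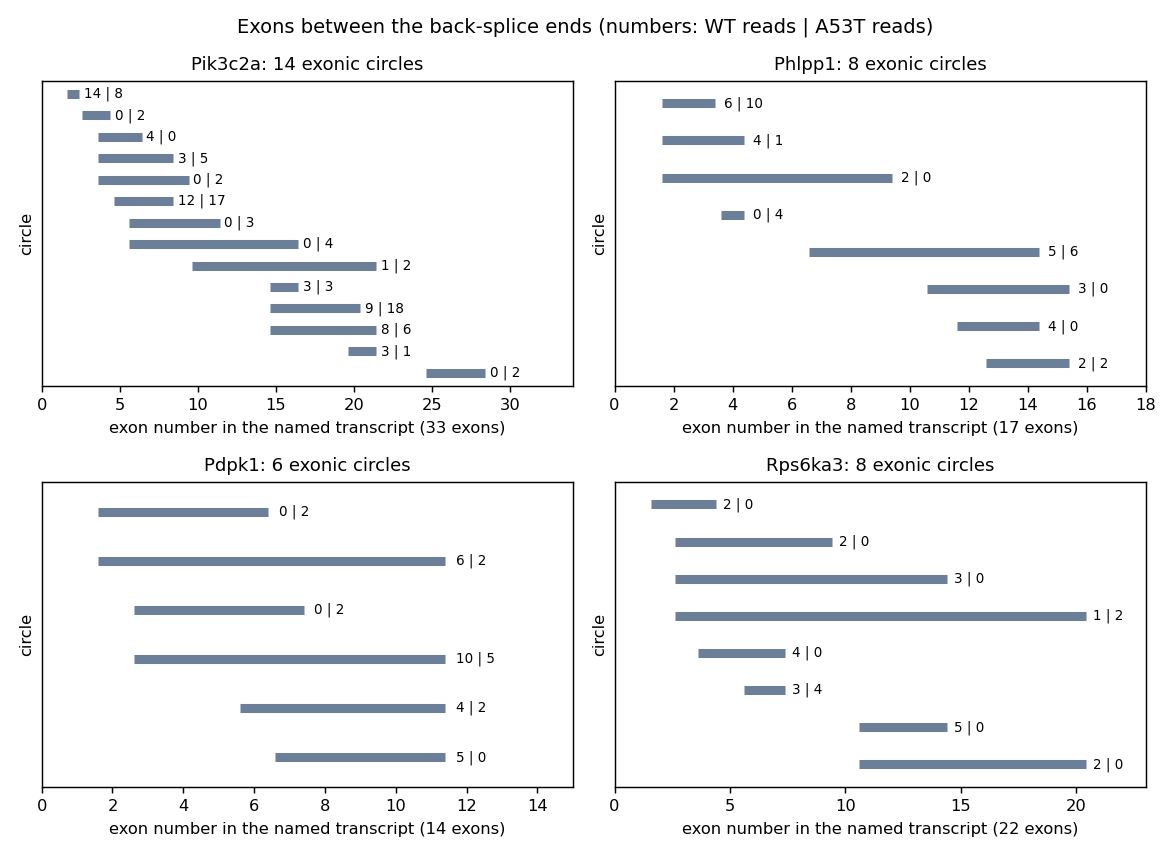
Exon runs of the exonic circles of Pik3c2a (14), Phlpp1 (8), Pdpk1 (6) and Rps6ka3 (8), drawn by exon number of the named transcript (horizontal axis), 1 line per circle, with its WT and A53T reads beside it. Circles share starts and ends: 3 circles start at Pik3c2a exon 15 and 4 end at Pdpk1 exon 11.

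The phosphatase genes oppose the kinases: INPP4A and INPP4B remove a phosphate from a product of PI3K, and PHLPP1 and PHLPP2 remove one from AKT. Inpp4b, the longest of these genes, had 13 circles and 80 reads, 19, 21 and 4 in WT and 13, 16 and 7 in A53T. WT replicate 3 was the lowest and the groups overlapped, at 436 ± 240 and 387 ± 153 CPM (n = 3 per group, ± SD). The log2 fold change was -0.21 (SE 0.51, 95% interval -1.23 to 0.81; adjusted p = 0.993, edgeR quasi-likelihood with Benjamini-Hochberg). Its most read circle, exons 2 to 5 with the start codon, had only 16 reads, and an intronic circle had 5 reads, all in A53T replicate 2.

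Phlpp1 had 14, 9 and 3 reads in WT and 5, 7 and 11 in A53T. The highest and the lowest of the 6 counts were both in WT, and the log2 fold change was -0.13 (SE 0.66). Its circle of exons 2 to 3 gave 16 of 49 reads, and 12 of these lay in WT replicate 2 and A53T replicate 2. Phlpp2 had 4, 2 and 2 reads in WT and 1, 2 and 5 in A53T.

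Inpp4a fell under the filter and had 2, 2 and 4 reads in WT against 0, 0 and 1 in A53T. All WT libraries lay above all A53T libraries at very low counts. Of the 136 host genes with the same number of reads in all, the groups did not overlap for 10.3%, with A53T the lower group for 4.41%. The ratio of WT to A53T was 7.90 with a 95% counting interval of 1.06 to 351, which covers counting error and not the spread between samples. Inpp4a was chosen for this interval after its counts were seen, so the interval is no test. The share of host genes with such an interval was not computed. The 4 phosphatase genes together stood at 874 ± 332 CPM in WT and 723 ± 63.9 CPM in A53T (n = 3 per group, ± SD), overlapping.

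Pdpk1 encodes PDK1, the kinase that phosphorylates AKT and SGK at the activation loop. It had 9, 11 and 7 reads in WT and 3, 4 and 6 in A53T. All WT libraries (271, 302 and 278 CPM) lay above all A53T libraries (103, 125 and 183 CPM), with means of 284 ± 16.4 and 137 ± 41.2 CPM (n = 3 per group, ± SD). The log2 fold change was -1.02 (SE 0.74, 95% interval -2.51 to 0.47), and the difference did not pass (adjusted p = 0.991, edgeR quasi-likelihood with Benjamini-Hochberg). Leaving out each library gave -1.31 to -0.88. On summed reads, 27 against 13, the ratio of WT to A53T was 2.05 with a 95% counting interval of 1.02 to 4.33. That interval covers counting error and not the spread between samples, which the interval of the log2 fold change includes. The counting interval was computed with the counts known and is no test. The share of host genes with such an interval was not computed. Pdpk1 was the 1 gene of the 12 tested here whose groups did not overlap. Among all host genes tested the groups did not overlap for 10.5%, with A53T the lower group for 4.79%.

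The Pdpk1 reads came from 7 circles, of which 4 ended at the end of exon 11 of 14 and held 34 of the 40 reads (85.0%). These 4 had 25 reads in WT and 9 in A53T. Exons 3 to 11 gave 5, 5 and 0 reads in WT and 3, 0 and 2 in A53T, while exons 7 to 11 gave 5 reads in WT replicate 3 only. The non-overlap was thus seen in the sum, and no single Pdpk1 circle passed the filter.

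Of the kinases downstream of PDK1, Akt1, Akt2 and Sgk3 had no circle listed. Sgk1 had 1 intronic circle with 4 reads, all in WT replicate 2. Together with Pdpk1 these kinases stood at 320 ± 79.5 CPM in WT and 137 ± 41.2 CPM in A53T (n = 3 per group, ± SD), where the sum differs from Pdpk1 alone only by the Sgk1 reads.

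**Figure D3:**
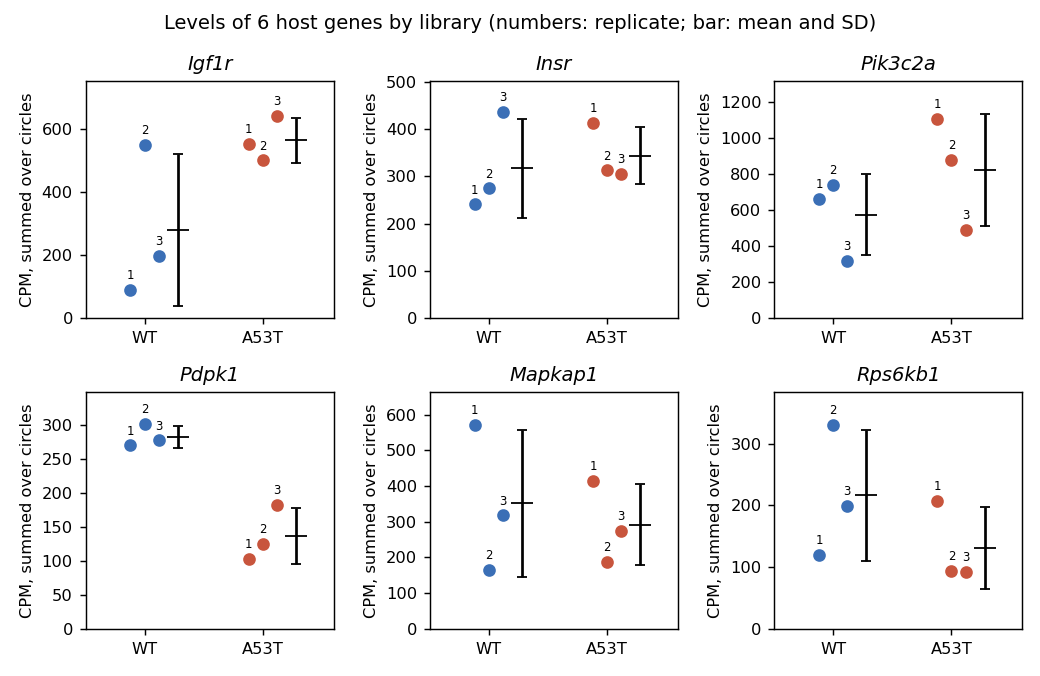
Level in CPM (vertical axis) of 6 host genes in each WT and A53T library, each point being 1 library and each bar the mean with its SD (n = 3). Pdpk1 is the gene whose WT libraries all lie above its A53T libraries, while for Igf1r WT replicate 2, at 549 CPM, lies within the A53T range.

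mTOR acts in complex 1, with RPTOR, and in complex 2, with RICTOR and the subunit SIN1 made from Mapkap1. MLST8 belongs to both, and DEPTOR binds both as an inhibitor. Mapkap1 had most of the reads of these genes, 19, 6 and 8 in WT and 12, 6 and 9 in A53T. The groups overlapped at 351 ± 205 and 292 ± 114 CPM (n = 3 per group, ± SD), with WT replicate 1 the highest. The log2 fold change was -0.27 (SE 0.59, 95% interval -1.45 to 0.91; adjusted p = 0.993, edgeR quasi-likelihood with Benjamini-Hochberg).

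The Mapkap1 circle of exons 2 to 4, 567 nt with the start codon, gave 40 of the 60 reads. It had 14, 5 and 4 reads in WT and 6, 3 and 8 in A53T, also overlapping. At 235 ± 152 and 181 ± 78.8 CPM (n = 3 per group, ± SD), the log2 fold change was -0.39 (SE 0.72, 95% interval -1.85 to 1.07; adjusted p = 0.993, edgeR quasi-likelihood with Benjamini-Hochberg). Without WT replicate 1 it turned sign, to 0.30.

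Mtor itself had 3 circles and 7 reads, 2 in WT replicate 1 and 5 in A53T replicate 2. Rptor had 7, 3 and 1 reads in WT and 2, 7 and 2 in A53T. Rictor had 6, 1 and 2 reads in WT and 0, 4 and 2 in A53T. In all of these the groups overlapped. Deptor had a single circle, exons 5 to 8, with 0, 3 and 1 and 2, 1 and 1 reads, and Mlst8 had none. The mTOR complex genes together stood at 619 ± 355 CPM in WT and 566 ± 146 CPM in A53T (n = 3 per group, ± SD).

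TSC1 and TSC2 form the complex that switches off RHEB, the small GTPase that activates mTOR complex 1, and DEPDC5 and NPRL3 belong to GATOR1, which restrains the same complex when amino acids are low. Depdc5 had 9 circles and 8, 8 and 3 reads in WT against 0, 8 and 7 in A53T. A53T replicate 1 stood alone at 0, and without it the log2 fold change of -0.31 (SE 0.85) became 0.22. Tsc1 had 2, 4 and 4 reads in WT and 2, 5 and 1 in A53T, and its circle of exons 2 to 8 was seen in all 6 libraries with 1 to 3 reads each. Tsc2 had 0, 0 and 2 reads in WT and 1, 4 and 1 in A53T. Rheb and Nprl3 had no circle listed. The group stood at 329 ± 28.3 CPM in WT and 303 ± 216 CPM in A53T (n = 3 per group, ± SD).

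Of the targets, Rps6kb1 encodes the S6 kinase that mTOR complex 1 activates. It had 4, 12 and 5 reads in WT and 6, 3 and 3 in A53T, with A53T replicate 1 above WT replicates 1 and 3 in CPM. WT replicate 2 held 12 of the 21 WT reads, and the means were 216 ± 106 and 131 ± 65.9 CPM (n = 3 per group, ± SD). The log2 fold change was -0.73 (SE 0.84, 95% interval -2.41 to 0.94; adjusted p = 0.991, edgeR quasi-likelihood with Benjamini-Hochberg). Exons 2 to 4 made the most frequent Rps6kb1 circle, with 27 of 33 reads and at least 2 in every library.

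Rps6ka3 encodes RSK2, a kinase that PDK1 also phosphorylates. Its 14, 3 and 5 reads in WT and 2, 1 and 3 in A53T fell under the filter, and no test was made. WT replicate 1 was the highest at 421 CPM, while WT replicate 2 (82.4 CPM) lay below A53T replicate 3 (91.6 CPM), so the groups overlapped. The ratio of WT to A53T on summed reads was 3.62 with a 95% counting interval of 1.42 to 10.9, again for counting error only. Rps6ka3 was chosen for this interval after its counts were seen, so the interval is no test. The share of host genes with such an interval was not computed. The 28 reads were spread over 8 circles, 4 of which were read in WT replicate 1 alone or in it and 1 more library.

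Gsk3b, which encodes a kinase that AKT inhibits, had 7 reads of a circle of exons 3 to 9 in WT replicate 1 and 2 reads of another circle in A53T replicate 1. Foxo1, a transcription factor gene, had 2 reads, both in A53T replicate 3. Eif4ebp1 and Eif4ebp2, which encode inhibitors of the cap-binding factor eIF4E, had no circle listed. The targets together had 752, 412 and 397 CPM in WT and 345, 125 and 244 CPM in A53T. These sums did not overlap, at 520 ± 201 and 238 ± 110 CPM (n = 3 per group, ± SD), and were not tested. The separation rests on Rps6ka3, which gave 198 of the 397 CPM of WT replicate 3 and 69.0 of the 345 CPM of A53T replicate 1. Without Rps6ka3, A53T replicate 1 would lie above WT replicate 3. WT replicate 1 stood highest, with 14 of its 25 reads from Rps6ka3 and 7 from Gsk3b.

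**Figure D4:**
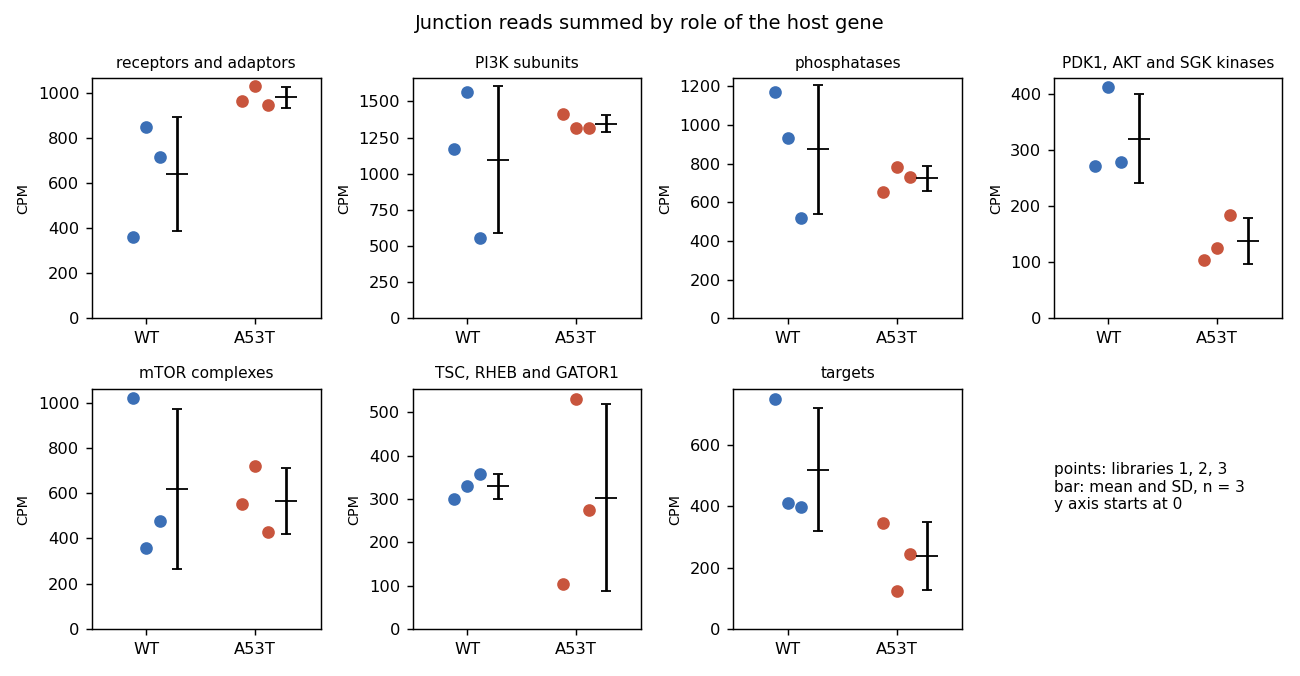
Summed level in CPM (vertical axis) of the pathway genes by role in each WT and A53T library, each point being 1 library and each bar the group mean with its SD (n = 3). The receptor sums are separate between the groups with A53T above. The sums of the PDK1, AKT and SGK kinases and of the targets are separate with WT above, and the other 4 of 7 overlap. The kinase sum is 40 of 44 reads Pdpk1. The receptor separation rests on 7 Irs1 reads in A53T replicate 2, and the target separation rests on Rps6ka3. None of the sums was tested, and no background share of non-overlap was computed for them.

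In the fit across all features, 12 of the 26 pathway genes with a circle passed the filter of at least 5 reads in at least 3 libraries (46.2%, against 25.4% of all host genes). Log2 fold changes were positive for 5 and negative for 7, against 50.8% positive among the 1377 host genes tested. Their median was -0.17, and that of all host genes was 0.01 with quartiles of -0.33 and 0.38. In edgeR quasi-likelihood with Benjamini-Hochberg adjustment 0 of the 12 passed an adjusted p of 0.05, and so did 0% of all host genes. Counted at an unadjusted p under 0.05, they were 0 of 12, against a background of 4.79%. DESeq2 called 0 at either level, and limma-voom called 0 after adjustment and 1, Igf1r, before it. Standard errors of the 12 ran from 0.38 to 1.01 on the log2 scale, and each of the 12 intervals reaches past 1 log2 unit in at least 1 direction.

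Single circles were tested for 4 of the 118 (3.39%, against 6.69% of all circRNAs). Their log2 fold changes were positive for 2 and negative for 2 (48.4% of the 1214 circRNAs tested were positive). By the edgeR quasi-likelihood test 0 of the 4 passed after Benjamini-Hochberg adjustment, against 0% of all circRNAs tested. Counted at an unadjusted p under 0.05, they were 0 in edgeR and in DESeq2 and 1 in limma-voom, and the background in edgeR was 4.7%. No group pair was separate among the 4, where 11.3% of all circRNAs tested were, 6.1% with A53T the lower group.

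**Figure D5:**
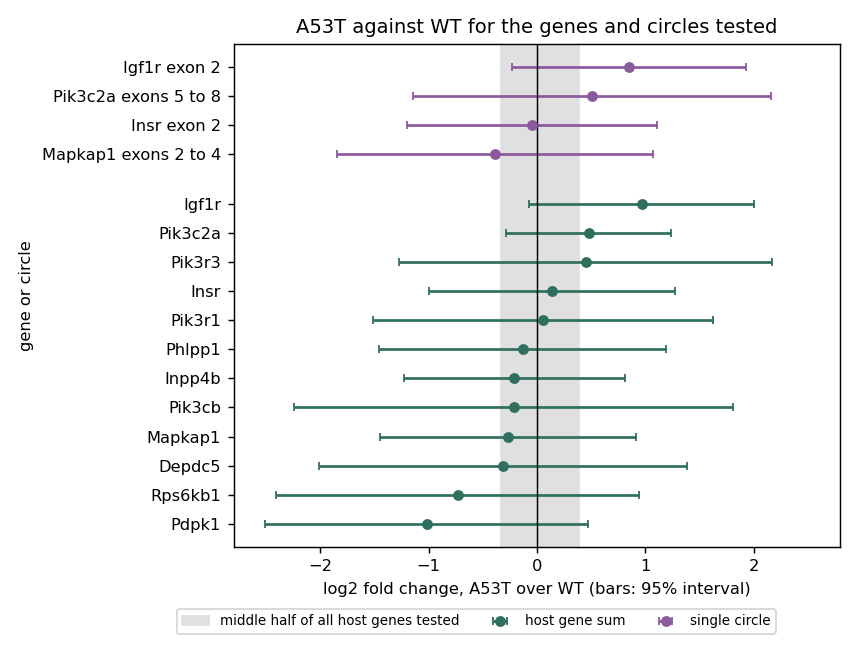
Log2 fold change of A53T over WT (horizontal axis) with its 95% interval (bars) for the 12 host gene sums and the 4 single circles tested; the grey band spans the quartiles of all host genes tested, -0.33 to 0.38. All 16 intervals include 0, and they run from 0.97 for Igf1r down to -1.02 for Pdpk1.

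As a share of all junction reads, the pathway genes held 0.508, 0.486 and 0.329% in the WT replicates and 0.402, 0.460 and 0.405% in the A53T replicates. WT replicate 3, the library with the fewest reads, was the lowest, and the A53T values lay within the WT range. The means were 0.441 ± 0.0976% and 0.422 ± 0.0324% (n = 3 per group, ± SD). The number of pathway circles with a read was 57, 46 and 36 in WT and 35, 48 and 43 in A53T.

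The circles of the pathway looked like circRNAs of the whole table in most structural measures, which are given as descriptions. Exonic circles made up 98 of 118 (83.1%, with 93.1% of the reads), against 72.4% of all circRNAs (86.6% of the reads). A further 13 were sense overlapping, 7 were intronic, and none were antisense or intergenic. The whole table has 335 intergenic circRNAs and 338 with no gene name. Genes taken by name cannot hold the latter, which are counted in the 72.4% and the 86.6%. All 98 exonic circles matched a run of exons of the named transcript, with a median of 4 exons and 574 nt, against 4 exons and 572 nt for all. Reads in a single library only were found for 66 circles (55.9%, against 50.7% of all). Reads in all 6 libraries were found for 12 (10.2%, against 8.80%). These held 42.2% of the pathway's reads, a lower share than the 58.4% over the table. Circles were read in WT only in 30.5% of cases and in A53T only in 28.8%, against 29.1 and 29.5% over the table.

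Circles read in all 6 libraries came from 9 genes: exon 2 of Igf1r, Insr and Pik3r1, 3 circles of Pik3c2a (exons 5 to 8, 15 to 20 and 15 to 21), Pik3r3 exons 2 to 5, Inpp4b exons 2 to 5, Mapkap1 exons 2 to 4 and 2 to 3, Tsc1 exons 2 to 8 and Rps6kb1 exons 2 to 4. Of the 98 matched circles 24 began with exon 2 (24.5%, with 47.0% of the reads), against 27.7% (41.7% of the reads) over the table. Single-exon circles numbered 6 (6.12%) and held 24.4% of the reads, against 4.72% of circles and 12.8% of reads over the table. They were exon 2 of Igf1r, Insr, Pik3c2a, Pik3r1 and Foxo1, and exon 4 of Phlpp1.

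The annotated start codon lay in 16 of the 96 circles whose transcript has a coding sequence (16.7%, against 13.4%). Wholly coding were 78 (81.3%, against 84.7%), and 27 of these had a length that is a multiple of 3 (34.6%, against 40.3%). By reads these held 46.1% of the reads of wholly coding circles, against 39.0% over all circles listed. Of the 27, 26 had no stop codon in the frame of the host, Pdpk1 exons 6 to 11 being the exception, and over all circles in the table the share was 99.5%. Among the matched circles 53 (54.1%) shared a start or an end with another circle of the same gene, against 62.8% over the table, at 16 starts and 15 ends in 11 genes.

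Genes with and without a circle differed in length. By GENCODE M21 the 26 genes with a circle spanned a median of 108 kb (36.8 to 785 kb), and the 11 without one 24.2 kb (5.53 to 103 kb). The ranges overlap: Sgk3, at 103 kb, had no circle listed, and Tsc2, at 36.8 kb, had 2. The same order held over all protein-coding genes, with medians of 65.3 and 11.8 kb. A circle was listed for 70.3% of the 37 genes and for 23.2% of the 21924 protein-coding genes. The table lists only circles with at least 2 reads in some library, so a gene not listed may have circles below that level.

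Other genes of the pathway were taken from a further list of 110, of which 58 had a circRNA and 9 were tested. Log2 fold changes were positive for 2 and negative for 7, with a median of -0.31. By edgeR quasi-likelihood with Benjamini-Hochberg adjustment 0 of the 9 passed, 0 had an unadjusted p under 0.05, and none had separate groups. Eif4e, the gene of the cap-binding factor held by the EIF4EBP proteins, had 43, 24 and 17 reads in WT and 18, 28 and 10 in A53T (log2 fold change -0.55, SE 0.38).

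Ppp2r2a, which encodes a regulatory subunit of protein phosphatase 2A, was at -0.92 (SE 0.85), and Rps6ka5, a kinase gene, at -0.36. Pip5k1b, whose enzyme makes the substrate of PI3K, was at -0.31, and Eif4g3, a translation initiation factor gene, at 0.42. Arf1, named in the series text, had 1 circle with 4 reads, all in WT replicate 3.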

How the data were processed

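The deposited table holds back-splice junction read counts of each circRNA per library and the log2 CPM that the authors computed from them with edgeR, per the file headers; the counts alone were used. Tools listed in the submitters' processing notes are STAR, cutadapt 1.9.3 and edgeR 3.16.5, with build mm39. Which caller and annotation were used, and whether counting used the strand, is not given in the sources used here.

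Counts were tested for circRNAs and for sums per named host gene with the robust quasi-likelihood method of edgeR 4.0.16 after TMM scaling (R 4.3.3), two-sided, with no covariate and Benjamini-Hochberg adjustment over all features reaching 5 reads in 3 or more of the 6 libraries. The 338 circRNAs with no gene name (0.690 to 0.828% of reads) stayed out of host sums. Standard errors came from the F statistic. CPM of genes and circles were scaled by TMM. Counting intervals are exact conditional 95% intervals, computed for Inpp4a, Rps6ka3 and Pdpk1 alone, all with more reads in WT. These genes were chosen for them after their counts were seen. No gene with more reads in A53T, such as Igf1r, was given one, so the intervals are no test. Without molecular identifiers, PCR reads are no independent molecules. Alternatives were other scalings and filters, DESeq2 1.42.0, limma-voom (limma 3.58.1), a replicate block and leaving out each library. The script was tested on simulated data.

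Exon numbers were matched, by span and spliced length, to the named transcript in GENCODE M21, an older build; no coordinates were converted, and numbers depend on that transcript, which for Inpp4b, Mapkap1, Depdc5 and Pik3ca differed between circles. Exon 2 sequences were aligned globally in Biopython 1.88. Every member is named; full statistics are given for up to 4 genes and 4 circles per direction with the smallest p, and for other pathway genes up to 6 with the smallest p; some genes of the lists are not reported here. The members and lists were chosen with earlier results of these data known. Arf1, genes under the filter and single circles described beyond that rule were chosen after their values were seen.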

Additional observations from a re-analysis of the deposited data

How the results depend on the processing

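No circle and no host gene of the pathway passed the threshold in any setting run. Over all features the count of 0 circRNAs became 1 with the filter of at least 10 reads (Nlrp5-ps), 1 in limma-voom (Cdr1os) and 0 to 1 on leaving out each library (Erc2 without A53T replicate 2, Nlrp5-ps without A53T replicate 3). For host genes the count of 0 became 1 in limma-voom (Cdr1os) and stayed 0 on leaving out each library. The cause was not tested. The difference in the pathway's share of reads, A53T minus WT, was -0.019 percentage points and ran from -0.075 to 0.015 without each library.

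Of the 16 log2 fold changes followed, 7 kept their sign in every setting that could be fitted. Among these, Pik3c2a exons 5 to 8, Pik3r3 and Rps6kb1 could be fitted without only 3 of the 6 libraries, since they otherwise fell under the filter; Pik3r3 has no value without A53T replicate 3, which held 12 of its 19 A53T reads. With all libraries kept, 100 of 101 values kept it, the exception being Pik3r1 in limma-voom (-0.037). Leaving out each library turned 9: Mapkap1 (-0.64 to 0.29), its circle of exons 2 to 4 (-0.68 to 0.30), Insr (-0.034 to 0.38), its exon 2 circle (-0.18 to 0.10), Pik3r1 (-0.21 to 0.33), Pik3cb (-0.76 to 0.32, over 3 of the 6 libraries), Inpp4b (-0.59 to 0.048), Phlpp1 (-0.47 to 0.35) and Depdc5 (-0.83 to 0.22).

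The labels do not say whether the replicate numbers pair the samples. Deviations of same-numbered samples correlated at -0.03 to 0.02 for circRNAs and -0.01 to 0.02 for host genes, and 2 and 3 of the 6 samples correlated best with their own number. With 3 samples per group and low counts, these values cannot tell whether a pairing exists. With the number as a replicate block 0 circRNAs and 0 host genes passed, with 47 and 63 at an unadjusted p under 0.05, and no adjusted call of the pathway changed. Before adjustment Igf1r had a p under 0.05 in edgeR with the block, 1 of 12 pathway genes tested, against 63 of 1377 host genes. It also did so without WT replicate 2, 1 of 9 tested, against 72 of 1225 host genes, and no pathway gene did otherwise in edgeR. Of the 4 pathway circles tested without WT replicate 2, 1 had a p under 0.05, against 65 of 1039 circRNAs. Depth is 1 limit: 14 of the pathway's 26 genes and 114 of its 118 circles were too low to test. The shares tested were 46.2% of its genes, against 25.4% of all host genes, and 3.39% of its circles, against 6.69% of all circRNAs.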

Other observations

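Some genes of the wider pathway list had too few reads to test and are given as values, chosen after they were seen. Tbc1d4, which encodes a target of AKT in glucose transport, had 0 reads in each WT library and 5, 3 and 2 in the A53T libraries. Ppp2r2b, which encodes a brain regulatory subunit of protein phosphatase 2A, had 4, 2 and 2 reads in WT and 0 in each A53T library. Among all host genes listed, 9 had at least 2 reads in every A53T library and 0 in WT, and 10 had the opposite. The median host gene had 8 reads in all, and many had too few reads to show either pattern. These counts therefore do not give how often it occurs at the read numbers of Tbc1d4 and Ppp2r2b, which was not computed. Inpp5b, an inositol phosphatase gene, had 2, 4 and 7 reads in WT and 0, 1 and 1 in A53T. Eef2k, which encodes the kinase of a translation elongation factor, had 0, 2 and 0 in WT and 4, 3 and 4 in A53T. Groups did not overlap for 10.5% of all host genes tested and for 10.3% of the 136 with as many reads as Inpp4a. No such share was computed at the read numbers of Inpp5b and Eef2k.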
